A study of Mus musculus with 32 samples.

Results

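Gene expression was compared among 9 of the 32 arrays of a study of pristane in mouse mesentery: 3 arrays of treated F1 mice, 3 of treated BALB/c mice and 3 of treated DBA mice, all taken on day 3. These 9 arrays were chosen by their labels, as all the day 3 arrays of treated mice, and no untreated array entered the comparison. The F1 mice carry 1 genome of each parental strain, and their titles read CDF1. Every mouse of the 9 arrays had received 0.5 ml of pristane (TMPD), a branched alkane oil, into the peritoneal cavity, and the tissue was mesentery, the peritoneal sheet that holds the gut and its fat, vessels and lymphoid tissue. The labels give no age, no sex and no DBA substrain, and whether each array of a group is a separate mouse is not stated. P-values therefore measure only how far arrays of a group spread, which may be technical. Of the other 23 arrays, the 3 untreated arrays of each strain with title codes of the same run were used only to define the genes of the inflamed state and to ask whether F1 stood where it stands without treatment.

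Pristane sets up a lasting inflammation of the peritoneum in which macrophages and other leukocytes gather around oil droplets in fat and mesothelium. BALB/c mice go on to develop plasma cell tumours called plasmacytomas, whereas DBA mice largely resist them. Part of the inflammation runs through type I interferon: the cytokine binds its receptor, activates transcription factors of the STAT and IRF families, and these bind short elements in the promoters of antiviral genes, among them the genes that carry the signal onward. An F1 holds both parental alleles of each autosomal gene in the same cells. An allele that acts only on its own copy leaves the F1 midway between the parents, whereas a factor that acts on both copies can move F1 to a parent's level or past it.

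Signals are the deposited probe set intensities on a linear scale, and tests were run on log2(signal + 24.9), in limma, over 11854 genes whose brightest probe set passed a signal of 103.7 on at least 3 of the 9 arrays. The mid-parent is the mean of the BALB/c and the DBA log2 means. A gene is called, and described as higher or lower, at a Benjamini-Hochberg adjusted p under 0.05 over all 11854 genes. A gene lies on the BALB/c side if the parents differ, F1 differs from DBA in the same direction and F1 was not called against BALB/c, and on the DBA side in the mirror case. It lies between the parents if F1 was called against both and stands inside the parental span, and above or below both if F1 was called against both in the same direction. A missed call against a parent does not show that F1 has that parent's level, so the place of F1 is also given as a position, which is 1 at the BALB/c mean, 0 at the mid-parent and -1 at the DBA mean. F1 minus BALB/c and F1 minus DBA share the F1 arrays. Where a group lies below 103.7, the size of its difference depends on the 24.9 added before the log. Genes of the inflamed state are the 994 (8.39% of those tested) that were called and at least 2-fold higher in the mean of the 3 treated groups than in the mean of the 3 untreated ones, a set that the F1 arrays helped to define and that therefore favours genes high in F1. The place of F1 among inflamed-state genes is given for a set defined by the same rule from the 12 BALB/c and DBA arrays alone, chosen after seeing the data; it holds 954 genes (8.05%), 879 of them shared with the 994.

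Arrays of a group correlated at 0.958 to 0.981 in F1, 0.984 to 0.99 in BALB/c and 0.982 to 0.987 in DBA over the genes tested. The 3' to 5' signal ratio of the actin control probe sets, a measure of RNA integrity and labelling, was 1.369 to 1.686 in F1, 1.626 to 2.211 in BALB/c and 1.835 to 2.009 in DBA, lower on every F1 array than on every DBA array, and 2.069 to 2.868 on the 9 untreated arrays; its part in the results was not tested. All 9 arrays were high in Xist, the RNA that coats the inactive X in female cells, at signals of 12294 to 16808 in F1, 16852 to 22748 in BALB/c and 22918 to 23556 in DBA. The tissue's fat and mesothelium were present throughout. The adipocyte gene Fabp4 had signals of 17354 to 24614 in F1, 24527 to 36053 in BALB/c and 36019 to 37344 in DBA. The 14 mesothelial markers had mean log2 levels of 10.90 to 11.17, 10.86 to 10.94 and 10.49 to 10.94 in the same order. F1 replicate 1 stood apart in smooth muscle markers, with a list mean of 10.24 on the log2 scale, against 12.90 and 12.03 on the other F1 arrays, 12.46 to 12.96 in BALB/c and 11.90 to 12.63 in DBA. The top of the intensity range was also lower in F1: the median of the 100 brightest probe sets was 19314, 21045 and 15064 on the F1 arrays, against 20324, 22014.0 and 25899 on the BALB/c arrays and 26345, 25407 and 26494 on the DBA arrays. Of the 100 brightest genes 98 stood below the mid-parent in F1, with a median of -0.40, and 52 were called lower and 0 higher, so that decreases of very bright genes are given with this in view; its part in them was not tested. As the tissue was taken whole, fewer cells of a type and less RNA per cell cannot be told apart.

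F1 mesentery at day 3 was called against DBA in more genes than against BALB/c, and it exceeded both parents on a set led by interferon-induced genes. With Xist as a term the order turned, to 128 genes against DBA and 138 against BALB/c. All 9 arrays were high in Xist and the Xist signals of the 3 groups did not overlap. The term therefore also takes up differences between the groups, and its counts cannot set these apart from an effect of Xist level. F1 differed from the mid-parent in 1050 genes (8.86% of those tested), 670 higher and 380 lower. The share higher was 63.8%, and 77.3% when each array was centred on its median. It was 58.2% against the arithmetic mid-parent. Over all alternatives it ran from 56.3% without F1 replicate 1 to 96.5% with the Xist term. The distance was at least 2-fold in 184 of the higher and 15 of the lower genes. The parents differed from each other in 2063 genes (17.4%), 977 higher and 1086 lower in BALB/c. F1 differed from BALB/c in 827 genes (6.98%) and from DBA in 2123 (17.9%). By class, 866 genes (7.31%) lay on the BALB/c side, 273 (2.3%) on the DBA side, 97 (0.818%) between the parents, 251 (2.12%) above both and 64 (0.54%) below both, while 728 genes with a parental difference (6.14%) could not be placed. Single arrays decided many of these calls: without F1 replicate 3 the genes called against the mid-parent numbered 296 and those above both parents 78, and without BALB/c replicate 2 they numbered 572 and 97.

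**Figure D1:**
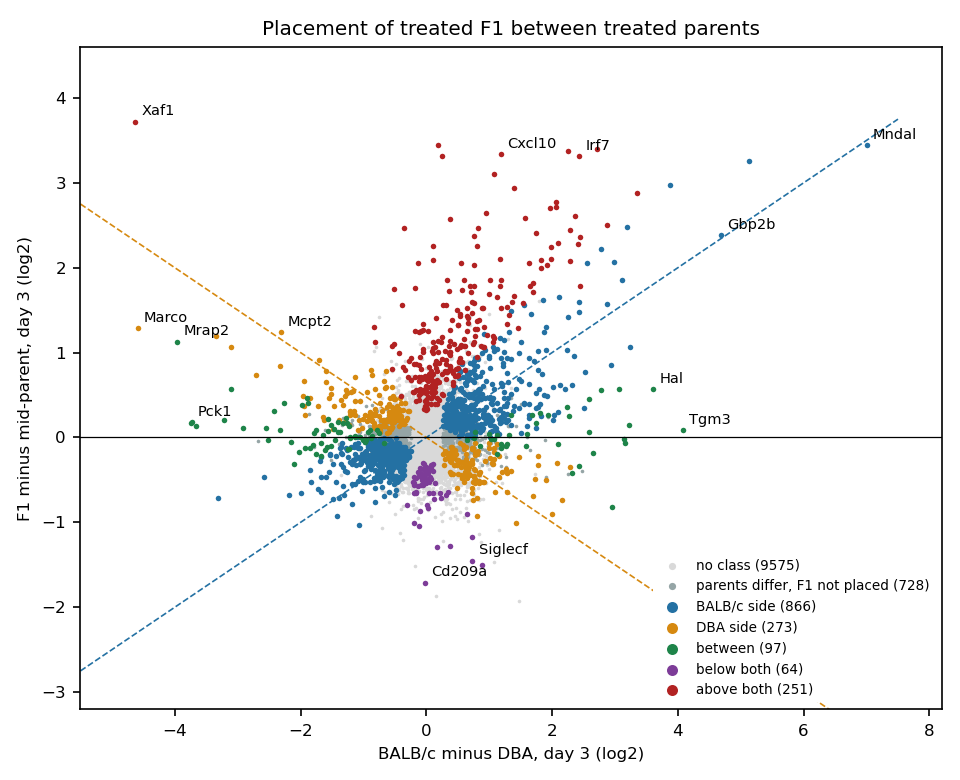
F1 minus mid-parent (vertical, log2) against BALB/c minus DBA (horizontal, log2) for the 11854 genes tested, 1 point per gene, coloured by class. Points on the blue dashed line have the BALB/c mean and points on the orange dashed line the DBA mean; Mndal and Gbp2b lie close to the BALB/c line, whereas Xaf1, Cxcl10 and Irf7 lie above both lines.

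Among genes of the inflamed state by the parental arrays alone, the parents differed in 310. Of these 275 were higher in BALB/c, and for them the median position of F1 was 0.835, nearer the BALB/c mean than the mid-parent, with quartiles of -0.123 and 1.76. For the 35 that were higher in DBA the median position was -0.48, about midway from the mid-parent to the DBA mean. The 1753 genes outside this set with a parental difference had a median position of 0.304. Of the 251 genes above both parents 91 (36.3%) belonged to the set and of the 64 below both 11 (17.2%), against 8.05% of all genes tested. Genes between the parents or on a side all have a called parental difference, and of the 2063 such genes 15% belonged to the set. Of the 97 between, 13 (13.4%) did, of the 866 on the BALB/c side 132 (15.2%) and of the 273 on the DBA side 51 (18.7%). With F1 helping to define the set the shares above both, below both and between were 53.4%, 12.5% and 10.3%. The median position of the genes higher in BALB/c was then 1.06, so these values moved with how the set was defined. The 252 genes whose parents differed at least 2-fold after treatment and, in the same direction, without it had a median position of 0.141, and 64.7% of them lay within 0.5 of the mid-parent. The 188 whose 2-fold difference was not called in untreated tissue had a median position of 0.649.

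**Figure D2:**
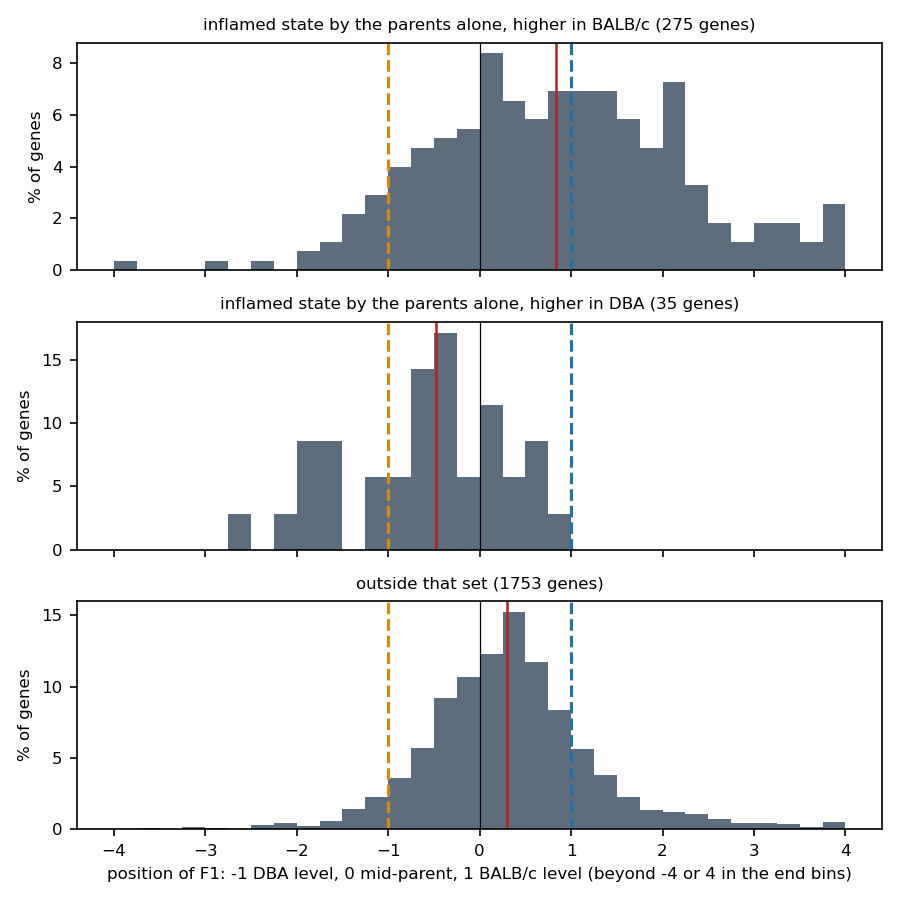
Position of F1 in the parental span for genes with a called parental difference, as the percentage of genes per bin of 0.25, with the DBA mean at -1 (orange dashes), the mid-parent at 0 and the BALB/c mean at 1 (blue dashes). The red line is the median, at 0.835 for genes higher in BALB/c and -0.48 for genes higher in DBA of the inflamed state defined by the parental arrays alone, and 0.304 for genes outside that set.

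Genes on the BALB/c side included interferon-induced genes with low signals in DBA mesentery. Mndal, a nuclear member of the interferon-induced Ifi200 family, had signals of 8612, 7804 and 7841 on the F1 arrays, against 7777, 7174 and 10598 on the BALB/c arrays and 108, 34.4 and 11.6 on the DBA arrays. All F1 arrays lay within the range of the BALB/c arrays and far above those of DBA, where the gene was near or below 103.7. F1 exceeded DBA by 6.94 ± 0.36 on the log2 scale (SE; 3 arrays each, adjusted p = 5.8e-06 in limma). It differed from BALB/c by -0.06 ± 0.36 (adjusted p = 0.95). Its position was 0.984 on the log2 scale and 0.898 on the linear one, where a midway level would give 0. Gbp2b, an interferon-induced GTPase that acts against intracellular microbes, had signals of 4429, 4377 and 5294 on the F1 arrays, against 4509, 3770.4 and 5564 on the BALB/c arrays and 157, 164 and 139 on the DBA arrays. Here too the F1 arrays overlapped those of BALB/c, at a position of 1.02, and F1 stood 4.73 ± 0.14 above DBA (adjusted p = 8.1e-08). A strain difference in the probe sequence of a set and a difference in transcript level cannot be told apart for genes of this kind.

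Interferon effectors on the BALB/c side shaded into those that exceeded both parents. Ifi44l, another interferon-induced gene, had signals of 2890.2, 1669.5 and 2426 on the F1 arrays, against 1340.4, 838 and 2424 on the BALB/c arrays and 18.8, 4 and 28 on the DBA arrays. F1 overlapped BALB/c and lay far above DBA, at a position of 1.27. Oas3, which makes the oligoadenylates that switch on RNase L, had signals of 2862, 2935 and 3124 on the F1 arrays, against 1630.4, 1023 and 1786 on the BALB/c arrays and 141, 75 and 34.8 on the DBA arrays. Every F1 array was above every BALB/c array, but the difference of 1.03 ± 0.32 was not called (adjusted p = 0.083), and the position was 1.53. Ifit1, which binds viral RNA with foreign cap structures, had signals of 10899, 9214 and 7714 on the F1 arrays, against 5018, 3279 and 7418 on the BALB/c arrays and 610.1, 577 and 404 on the DBA arrays. It repeated that pattern, with F1 0.89 ± 0.26 above BALB/c (adjusted p = 0.074) and 4.07 ± 0.26 above DBA (adjusted p = 1.1e-05). Without BALB/c replicate 3 Ifit1 counted as above both parents, and without DBA replicate 1 or 3 so did Oas3.

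The promoters of 4 interferon-induced genes are shown because their transcripts stood within or above the range of the higher parent in F1 and because their windows hold letters like the core of the element that interferon-activated factors bind. They are 300 bases each, from 250 before to 50 after the transcription start, 5′ to 3′ along the gene's strand, from RefSeq on the reference assembly GRCm38.p6; the parental alleles themselves are not given here. Capitals mark GAAA, any 2 bases and GAAA again or, on the other strand, TTTC, any 2 bases and TTTC again.
Mndal promoter, chr1:173880138-173880437, minus strand: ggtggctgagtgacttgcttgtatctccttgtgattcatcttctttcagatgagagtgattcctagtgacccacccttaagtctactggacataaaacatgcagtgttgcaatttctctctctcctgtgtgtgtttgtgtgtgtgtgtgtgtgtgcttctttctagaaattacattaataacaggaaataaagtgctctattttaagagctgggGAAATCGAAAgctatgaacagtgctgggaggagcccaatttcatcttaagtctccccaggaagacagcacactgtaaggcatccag
Oas3 promoter, chr5:120777610-120777909, minus strand: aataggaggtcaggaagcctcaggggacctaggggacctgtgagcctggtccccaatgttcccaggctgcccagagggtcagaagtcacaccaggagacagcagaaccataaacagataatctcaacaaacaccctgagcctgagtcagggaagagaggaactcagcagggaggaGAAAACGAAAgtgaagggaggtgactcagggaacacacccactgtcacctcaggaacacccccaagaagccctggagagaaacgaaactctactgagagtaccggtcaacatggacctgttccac
Ifit1 promoter, chr19:34640639-34640938, plus strand: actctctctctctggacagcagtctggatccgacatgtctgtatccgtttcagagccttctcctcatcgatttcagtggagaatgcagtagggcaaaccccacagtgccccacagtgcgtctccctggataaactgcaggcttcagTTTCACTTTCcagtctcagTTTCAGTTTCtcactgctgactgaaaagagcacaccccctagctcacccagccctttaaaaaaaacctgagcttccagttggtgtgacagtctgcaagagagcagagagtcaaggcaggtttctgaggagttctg
Cxcl10 promoter, chr5:92348840-92349139, minus strand: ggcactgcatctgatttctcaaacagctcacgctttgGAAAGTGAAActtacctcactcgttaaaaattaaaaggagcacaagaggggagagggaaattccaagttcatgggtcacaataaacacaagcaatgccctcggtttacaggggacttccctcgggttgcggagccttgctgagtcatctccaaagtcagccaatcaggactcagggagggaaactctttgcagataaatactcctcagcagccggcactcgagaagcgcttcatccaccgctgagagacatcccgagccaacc
The motif stood in 3.44% of all 32851 promoters and in 3.05% of those of the genes tested. It stood in 15.3% of the 262 promoters of genes above both parents (40 of 262), in 4.02% of those on the BALB/c side, 3.21% on the DBA side, 4.17% between the parents and 1.69% below both. Of the 29 promoters found for members of the type I interferon list, 14 (48.3%) held it. The windows of Irf7, Xaf1, Ms4a4c, Ifit2 and Cxcl9 did not hold these letters, which says nothing of the factors that act there.

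Above both parents the leading genes were interferon-induced, among them members of both the type I and the interferon-gamma lists. The type I list holds 34 tested genes, of which 32 were higher in F1 than the mid-parent, against 5.65% of all genes, and 0 lower, with a median of 2.06 against -0.017 over all genes tested. Their mean log2 level was 12.11 to 12.28 on the F1 arrays, 10.56 to 11.47 on the BALB/c arrays and 9.21 to 9.50 on the DBA arrays, so the groups did not overlap. All 3 F1 arrays exceeded all 6 parental arrays in 29 of the 34 members, against 6.33% of all genes. Of the 34, 23 were called above both parents, against 2.12% of all genes. The parents differed in this list too, with 29 members higher and 1 lower in BALB/c (8.24% and 9.16% of all genes). The remaining 2 members, Ifi27l2a (0.10) and Ifitm3 (-0.29), were not called against the mid-parent; they were picked out after their values were seen. The count above the mid-parent was 31 or 32 whichever array was left out, whereas the count above both parents was 12 without F1 replicate 3, BALB/c replicate 1 or BALB/c replicate 2. It was 10 with the Xist term and 2 in an ordinary linear model, with 22 and 27 members then on the BALB/c side; the ordinary model also called 0 of the 5 Ifi200 and 0 of the 15 interferon-gamma genes above both.

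Among transcription factors and effectors of that list, Irf7, the factor that amplifies type I interferon production, had signals of 10588, 11551 and 10054 on the F1 arrays, against 2262, 1353 and 5008 on the BALB/c arrays and 390.4, 582 and 377 on the DBA arrays. The F1 arrays were close together at more than the highest BALB/c array, and BALB/c replicate 3 stood above the other BALB/c arrays. F1 exceeded BALB/c by 2.10 ± 0.37 (adjusted p = 0.01) and DBA by 4.53 ± 0.37 (adjusted p = 3.8e-05). Ms4a4c, a membrane-spanning gene induced by interferon in leukocytes, had signals of 6383, 7247 and 6206 on the F1 arrays, against 1299.5, 1019 and 2988 on the BALB/c arrays and 249, 234 and 185 on the DBA arrays. The 3 groups did not overlap, and F1 stood 3.40 ± 0.27 above the mid-parent. Ifit2, a relative of Ifit1, had signals of 5714, 3925 and 4979.6 on the F1 arrays, against 932, 536 and 1973 on the BALB/c arrays and 395, 324 and 371 on the DBA arrays. F1 stood 2.94 ± 0.31 above the mid-parent (adjusted p = 0.00033), and again BALB/c replicate 3 was the highest of its group.

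Xaf1, an interferon-induced antagonist of the apoptosis inhibitor XIAP, was the 1 member of the type I list that was called lower in BALB/c than in DBA. Its signals were 8307, 8494 and 7911 on the F1 arrays, against 101, 78 and 129 on the BALB/c arrays and 3145, 3213 and 2923 on the DBA arrays. F1 lay 1.41 ± 0.13 above DBA (adjusted p = 7.9e-05), while BALB/c was near background, and F1 minus BALB/c was 6.04 ± 0.13. The other probe set of Xaf1 gave an F1 minus mid-parent of 2.37 in place of 3.72. The parents also differed at Xaf1 without treatment, at mean signals of 1708 in F1, 50.37 in BALB/c and 2650.0 in DBA controls.

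**Figure D3:**
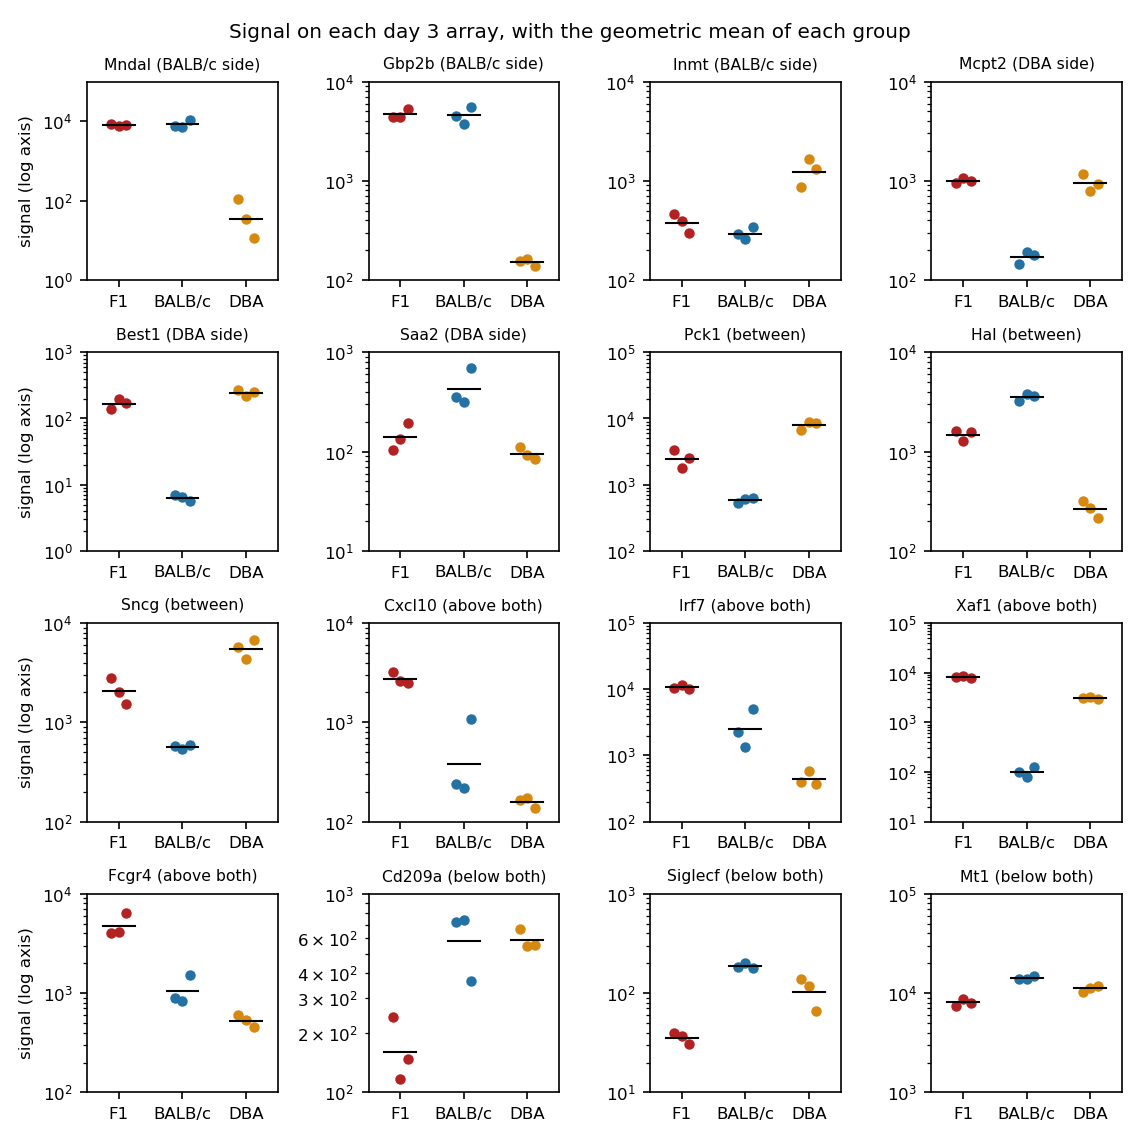
Signal of 16 genes on each of the 9 day 3 arrays, on a log axis, with F1, BALB/c and DBA from left to right in each panel; points are arrays and bars the geometric mean of a group. In the panels of genes above both parents the 3 F1 points lie higher than all 6 parental points, and in those below both they lie lower.

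The remaining Ifi200 genes followed their list. All 5 tested members were higher than the mid-parent (5.65% of all genes), with a median of 1.71. Their mean log2 level was 11.37 to 11.61 in F1, 10.29 to 11.08 in BALB/c and 7.83 to 8.48 in DBA. Ifi209 had signals of 1988, 1791 and 1772 on the F1 arrays, against 497, 336 and 1034 on the BALB/c arrays and 139.5, 128 and 85.9 on the DBA arrays. Ifi204, which senses DNA, had 990.1, 699 and 848 on the F1 arrays, against 398, 381 and 598 on the BALB/c arrays and 122, 129.9 and 115 on the DBA arrays. For both, all F1 arrays were above all parental arrays, and BALB/c was above DBA. Ifi207 exceeded the mid-parent by 1.65 ± 0.16 and Ifi202b by 0.90 ± 0.12 (adjusted p = 0.0018). The number of the 5 called above both parents was 4 (2.12% of all genes), and 0, 1 and 2 without F1 replicate 3, BALB/c replicate 1 and BALB/c replicate 2.

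The 3 chemokines that bind Cxcr3 and draw T and NK cells into inflamed tissue were called above both parents. Cxcl10 had signals of 3221, 2628 and 2483 on the F1 arrays, against 239, 218 and 1077 on the BALB/c arrays and 164, 174 and 138 on the DBA arrays. Each F1 array was more than every parental array, and BALB/c replicate 3 stood well above the other 5 parental arrays. F1 exceeded BALB/c by 2.75 ± 0.46 (adjusted p = 0.0082) and DBA by 3.93 ± 0.46 (adjusted p = 4e-04), whereas BALB/c minus DBA, at 1.18 ± 0.46, was not called (adjusted p = 0.11). Cxcl9 had signals of 519.7, 2261 and 1281 on the F1 arrays, against 59.9, 53.6 and 300.3 on the BALB/c arrays and 64.6, 162 and 51.8 on the DBA arrays. Cxcl11 had 425, 2290.2 and 1030.5 on the F1 arrays, against 39, 41.4 and 219 on the BALB/c arrays and 54.3, 59.7 and 78.9 on the DBA arrays. Both spread more within F1, with replicate 1 lowest and replicate 2 highest, and still did not overlap the parents; F1 exceeded the mid-parent by 3.31 ± 0.54 and 3.45 ± 0.52. Cxcl10 kept its class in all 9 fits that left out 1 array, whereas Cxcl9 lost it without F1 replicate 3 or BALB/c replicate 1 or 2, and Cxcl11 without F1 replicate 3 or BALB/c replicate 2.

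Among interferon-gamma targets and their GTPases 13 of 15 tested members were higher than the mid-parent and 0 lower (5.65% and 3.21% of all genes). The list median was 1.49. Their mean log2 level was 11.44 to 11.55 in F1, 9.89 to 10.87 in BALB/c and 9.38 to 9.53 in DBA. Iigp1, an immunity-related GTPase that attacks the vacuoles of parasites, had signals of 12832, 8914 and 11268 on the F1 arrays, against 5553, 3139.7 and 6276 on the BALB/c arrays and 1254, 1616 and 1189 on the DBA arrays. The groups did not overlap and lay in the order F1, BALB/c, DBA. The transcription factor Irf8 and the GTPase Irgm1, named after their values were seen, stood 0.81 and 1.49 above the mid-parent. Of the 15 members 10 were called above both parents (2.12% of all genes), and 2, 4 and 3 without F1 replicate 3, BALB/c replicate 1 and BALB/c replicate 2.

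MHC class I genes for peptide supply and gene control were higher in F1. Of 12 tested genes 9 were higher than the mid-parent (5.65% of all genes), with a median over the list of 1.05. The same 9 had all F1 arrays above all parental arrays (6.33% of all genes). The count of higher genes was 9 whichever array was left out and 11 with quantile normalization. Nlrc5, the transactivator of class I genes, had signals of 2384, 1772 and 2195 on the F1 arrays, against 699, 559 and 1150.3 on the BALB/c arrays and 453, 533 and 408 on the DBA arrays. Tap1, a subunit of the peptide transporter, had 3650.5, 3449.9 and 3483 on the F1 arrays, against 1548, 1188 and 1964 on the BALB/c arrays and 691, 792 and 784 on the DBA arrays. In both genes the F1 arrays formed a group of their own above BALB/c and DBA. The immunoproteasome genes Psmb9 and Psmb10 exceeded the mid-parent by 1.60 ± 0.12 (adjusted p = 8.5e-05) and 1.33 ± 0.14 (adjusted p = 0.00039). The 3 members not called, chosen for mention after their values were seen, were the class I heavy chains H2-K1 (-0.10) and H2-D1 (-0.01) and the light chain B2m (-0.29), all among the 100 brightest genes. H2-Q5, a non-classical class I gene outside the list, had signals of 1164, 1572 and 1636 on the F1 arrays, against 243, 125 and 292 on the BALB/c arrays and 311, 312 and 214 on the DBA arrays. The F1 arrays lay above all parental arrays, with F1 2.47 ± 0.23 above the mid-parent, and near-identical class I genes may share its probes. Of the 11 class II genes 2 were higher, H2-DMa by 0.90 ± 0.17 and H2-Eb1 by 0.50 ± 0.13, and 0 lower (5.65% and 3.21% of all genes). The count of higher class II genes was 0 without F1 replicate 3, 1 without F1 replicate 2, BALB/c replicate 1 or 2, or DBA replicate 1 or 3, and 3 without F1 replicate 1 or BALB/c replicate 3.

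Genes of cytotoxic lymphocytes were also higher in F1. Of 13 tested T and NK cell markers 7 were higher than the mid-parent and 0 lower (5.65% and 3.21% of all genes), with a median of 0.83. The list mean was 8.39 to 8.79 in F1, 7.35 to 8.12 in BALB/c and 7.28 to 7.55 in DBA. Nkg7, a granule protein of cytotoxic cells, had signals of 539.9, 1031 and 892 on the F1 arrays, against 246, 142 and 272 on the BALB/c arrays and 107, 134 and 179 on the DBA arrays. Klrk1, the activating receptor NKG2D, had 448, 449.8 and 572 on the F1 arrays, against 49, 39.5 and 174 on the BALB/c arrays and 23.9, 60.4 and 78.9 on the DBA arrays. F1 did not overlap the parents in either. The granzyme genes Gzmb and Gzma exceeded the mid-parent by 2.47 ± 0.37 and 1.85 ± 0.26, and Klrd1, which encodes CD94, by 0.83 ± 0.16 (adjusted p = 0.012). The T cell receptor genes Cd3d (0.53), Cd3e (0.52) and Cd3g (0.58), picked out after their values were seen, were not called. With the stricter filter on dim signals only 3 members of the list could be tested, and all 3 were higher. Of the 6 called above both parents (2.12% of all genes) 2, 3 and 3 were left without F1 replicate 3, BALB/c replicate 1 and BALB/c replicate 2.

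Activating Fc receptors were among the monocyte and macrophage markers above both parents. Fcgr4, an activating receptor for IgG, had signals of 4060.3, 4102 and 6409 on the F1 arrays, against 892, 831 and 1527 on the BALB/c arrays and 598, 533 and 456 on the DBA arrays. Fcgr1, the high-affinity receptor, had 4731, 5671 and 5440.1 on the F1 arrays, against 1706, 1406 and 2433 on the BALB/c arrays and 633, 518 and 432 on the DBA arrays. In both the F1 arrays stood well above BALB/c, and BALB/c above DBA. F1 exceeded BALB/c by 2.16 ± 0.24 (adjusted p = 0.0013) in Fcgr4 and by 1.53 ± 0.19 (adjusted p = 0.0022) in Fcgr1. Aif1, an actin-binding protein of macrophages, had signals of 2502, 2883 and 3269 on the F1 arrays, against 494, 531 and 832 on the BALB/c arrays and 565, 726 and 426 on the DBA arrays. The parents overlapped, and F1 stood 2.26 ± 0.19 above their mean. Of the 27 tested markers 8 were higher than the mid-parent, 5 without F1 replicate 3, and 0 lower (5.65% and 3.21% of all genes). The list median was 0.43. The list mean was 11.84 to 12.04 in F1, 11.20 to 11.52 in BALB/c and 10.92 to 11.75 in DBA.

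Other immune genes above both parents were spread over several functions. Tlr7, the endosomal receptor for single-stranded RNA, had signals of 678, 648 and 747 on the F1 arrays, against 288, 314 and 346 on the BALB/c arrays and 349, 318 and 324 on the DBA arrays. The parents overlapped and F1 exceeded their mean by 1.04 ± 0.09 (adjusted p = 0.00017). Cd72, a co-receptor of B cells, had signals of 1064, 1175 and 1376 on the F1 arrays, against 395, 371 and 505 on the BALB/c arrays and 272, 344 and 225 on the DBA arrays. The B cell list as a whole had a median of -0.05 with 2 of 9 members higher (5.65% of all genes), Cd72 and Ly6d (1.02), or 1 without F1 replicate 3 or BALB/c replicate 2. The complement gene C2 exceeded the mid-parent by 0.92 ± 0.12, the stress factor Ddit3 by 1.02 ± 0.15, and Timd4, a receptor for phosphatidylserine on resident macrophages, by 1.13 ± 0.16. Of 15 pattern recognition receptors 6 were higher (3 without F1 replicate 3) and 0 lower, against 5.65% and 3.21% of all genes. Of the 251 genes above both parents 45 (17.9%) belong to the 4 lists of type I interferon, Ifi200, interferon-gamma and class I genes, which make up 0.56% of all genes tested, and 0 of the 64 genes below both parents do.

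On the BALB/c side outside the interferon genes were monocyte chemokines and a toll-like receptor. Ccl12, a chemokine that draws monocytes, had signals of 3300.0, 5292 and 3177 on the F1 arrays, against 2556, 1287 and 3945 on the BALB/c arrays and 581, 665 and 646 on the DBA arrays. Ccl7, which does the same, had 1668, 4830.1 and 2338 on the F1 arrays, against 2254, 1293 and 3493 on the BALB/c arrays and 402, 472 and 434 on the DBA arrays. F1 overlapped BALB/c in both and lay above every DBA array, by 2.55 ± 0.33 and 2.55 ± 0.39 on the log2 scale. Tlr1, which pairs with Tlr2 on bacterial lipoproteins, had signals of 436, 336 and 476 on the F1 arrays, against 360.5, 447 and 393 on the BALB/c arrays and 104, 129 and 83.9 on the DBA arrays. Its position was 1.05. Of the 16 CC chemokine and receptor genes tested 5 lay on the BALB/c side and 1 on the DBA side (7.31% and 2.3% of all genes). Ccl5 was called above both, at 1.72 ± 0.26 over the mid-parent. Of the 16, 6 members were higher than the mid-parent (5.65% of all genes), or 3 without F1 replicate 3, BALB/c replicate 1 or any 1 of the DBA arrays. Lower were 2 (3.21% of all genes), or 0 or 1 without F1 replicate 2 or 3, any 1 of the BALB/c arrays or DBA replicate 2.

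Cell-type and tissue genes also took the BALB/c side. Mzb1, a chaperone of antibody-secreting cells, had signals of 1225, 1816 and 1563 on the F1 arrays, against 1863, 2209.7 and 2609 on the BALB/c arrays and 378, 713 and 351 on the DBA arrays. Every F1 array lay below every BALB/c array and above every DBA array, at a position of 0.516, and the difference from BALB/c was not called (adjusted p = 0.22). Tpsab1, a mast cell tryptase, had signals of 224, 181 and 314 on the F1 arrays, against 231, 195 and 351 on the BALB/c arrays and 72.7, 41 and 56.5 on the DBA arrays. F1 and BALB/c overlapped, at a position of 0.891. Tnfrsf1b, a receptor for TNF that lies among the genes studied for plasmacytoma susceptibility, had signals of 2475, 2040.2 and 2503 on the F1 arrays, against 1934, 1994 and 2291 on the BALB/c arrays and 1456, 1566 and 1220.3 on the DBA arrays. It exceeded DBA by 0.72 ± 0.12 (adjusted p = 0.0034) and was not called against BALB/c. In the plasma cell and immunoglobulin list 7 of 13 members were higher in F1 than in DBA (9.13% of all genes), 1 was lower than in BALB/c (2.47%) and 0 differed from the mid-parent.

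Genes that were low in BALB/c and F1 alike included Inmt, a methyltransferase of small amines, with signals of 459, 395 and 301 on the F1 arrays, against 289, 258 and 342 on the BALB/c arrays and 876, 1652 and 1311 on the DBA arrays. Timp4, a protease inhibitor made in fat, had signals of 483, 253 and 276 on the F1 arrays, against 252, 388 and 361 on the BALB/c arrays and 729, 784 and 1284 on the DBA arrays. Adm, the vasodilator adrenomedullin, had 264, 233 and 275 on the F1 arrays, against 287, 289 and 223 on the BALB/c arrays and 503, 512 and 623 on the DBA arrays. In these 3 genes F1 overlapped BALB/c and every F1 array lay below every DBA array. Stab2, a scavenger receptor of sinusoidal endothelium, had signals of 118, 209 and 359.9 on the F1 arrays, against 108, 105 and 78 on the BALB/c arrays and 1223, 1002 and 1344 on the DBA arrays. Every F1 array lay above every BALB/c array, with a wide spread within F1 and a position of 0.426. Without F1 replicate 1 it counted as between the parents. Many adipocyte identity genes were lower in F1 than in DBA. Of 16 members 12 were called lower (8.78% of all genes). On the BALB/c side lay 8 of the 16 (7.31% of all genes). The list mean was 11.98 to 12.54 in F1, 12.10 to 12.30 in BALB/c and 12.79 to 13.06 in DBA. The count of 8 became 3 without DBA replicate 2 or 3, and 5 without BALB/c replicate 1.

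Genes on the DBA side included mast cell and myeloid genes with low signals in BALB/c mesentery. Mcpt2, a chymase of mucosal mast cells, had signals of 954, 1074 and 999 on the F1 arrays, against 146, 192 and 179 on the BALB/c arrays and 1159, 782 and 939.9 on the DBA arrays. F1 and DBA overlapped and BALB/c lay below both, so that F1 exceeded BALB/c by 2.39 ± 0.15 (adjusted p = 3.4e-05) at a position of -1.07. Best1, a chloride channel, had signals of 139.8, 194 and 172 on the F1 arrays, against 7, 6.5 and 5.7 on the BALB/c arrays and 267, 215 and 249 on the DBA arrays. Cd300ld, a receptor of myeloid cells, had 572, 627 and 818 on the F1 arrays, against 101, 146 and 171 on the BALB/c arrays and 1308, 1005 and 832 on the DBA arrays. F1 lay below all DBA arrays in both, and F1 minus DBA was -0.48 ± 0.17 for Best1 and -0.61 ± 0.21 for Cd300ld, which were not called (adjusted p = 0.074 and 0.067). Their place depended on the scale. Against the log2 of the arithmetic mid-parent F1 stood 0.36 higher for Best1 and 0.18 for Cd300ld. Neither was called (adjusted p = 0.18 and 0.61, from the limma variances). Marco, a scavenger receptor of macrophages, had signals of 489, 203 and 289 on the F1 arrays, against 1.5, 4.6 and 2.3 on the BALB/c arrays and 807, 809 and 404 on the DBA arrays. BALB/c was near 0, and F1 overlapped DBA, at a position of -0.562 on the log2 scale and 0.033, close to midway, on the linear one; it counted as between the parents without F1 replicate 1 or DBA replicate 3.

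Some acute-phase and alternative-activation genes that were high in BALB/c lay on the DBA side in F1. Saa2, a serum amyloid A gene, had signals of 104, 133 and 195 on the F1 arrays, against 354, 312 and 688 on the BALB/c arrays and 111, 92.4 and 84.1 on the DBA arrays. Its neighbour Saa1 had 464, 752 and 1070.4 on the F1 arrays, against 1577, 1525 and 2683 on the BALB/c arrays and 504, 370.5 and 412 on the DBA arrays. F1 was below every BALB/c array in both, and F1 minus BALB/c was -1.45 ± 0.28 for Saa2 and -1.34 ± 0.29 for Saa1 (adjusted p = 0.015 and 0.023); the genes are near-identical and may share signal. Chil3, a chitinase-like protein of alternatively activated macrophages, had signals of 827, 1089 and 556 on the F1 arrays, against 3036, 4266 and 2155 on the BALB/c arrays and 1268, 804 and 392 on the DBA arrays. Its position was -0.9. Cyp2f2, a cytochrome P450, had signals of 90.2, 127 and 141 on the F1 arrays, against 588, 378 and 487 on the BALB/c arrays and 124, 93.8 and 55.3 on the DBA arrays. F1 overlapped DBA. Saa1 and Chil3 kept this class in 5 and 6 of the 9 fits that left out 1 array, Saa2 and Cyp2f2 in all 9. In the whole acute-phase and complement list 6 of 21 members lay on the BALB/c side (7.31% of all genes) and 2, the 2 Saa genes, on the DBA side (2.3%). The count of 6 became 1 to 3 without F1 replicate 3, any 1 of the BALB/c arrays, or DBA replicate 2 or 3.

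The circadian clock genes Nr1d1 and Dbp lay on the DBA side. Nr1d1, a repressor of the clock, had signals of 1079.9, 1191 and 994 on the F1 arrays, against 497, 442 and 528 on the BALB/c arrays and 935, 1412 and 1606 on the DBA arrays. Dbp, an output factor of the clock, had 4889.7, 5027 and 3784 on the F1 arrays, against 1532, 1687 and 3207 on the BALB/c arrays and 4632, 4964 and 5115 on the DBA arrays. Every F1 array exceeded every BALB/c array in both genes, and F1 overlapped DBA. Of 14 tested clock genes 3 were higher in F1 than in BALB/c (4.5% of all genes), Nr1d1, Dbp and Ciart, and 0 differed from the mid-parent or from DBA. Between the parents 9 were lower and 2 higher in BALB/c (9.16% and 8.24% of all genes). Nr1d1 kept its class in 8 of the 9 fits that left out 1 array, Dbp in 7 and Ciart in 1. The labels give no time of day for the tissue.

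The naming rule took most genes between the parents for the largest parental difference, which favours differences also present without treatment. Of all 440 genes whose parents differed at least 2-fold after treatment, 252 were also called in untreated tissue in the same direction. Of the 9 genes the naming rule gave between the parents, 8 also differed between BALB/c and DBA in untreated tissue, in the same direction. The other was Nnat, a small membrane proteolipid, with a BALB/c minus DBA of -3.75 in treated tissue and -1.22 in untreated tissue (limma adjusted p = 0.13 untreated). Pck1, the enzyme that makes phosphoenolpyruvate for glyceride synthesis in fat, had signals of 3364, 1814 and 2490.0 on the F1 arrays, against 533, 598 and 619 on the BALB/c arrays and 6702, 8900.4 and 8603 on the DBA arrays. The 3 groups did not overlap, and F1 exceeded BALB/c by 2.04 ± 0.19 (adjusted p = 0.00073) whereas F1 minus DBA was -1.68 ± 0.19 (adjusted p = 0.00037). Its position was -0.0968 on the log2 scale but 0.473 on the linear one, so F1 had less signal than the arithmetic mean of its parents. Npr3, the clearance receptor of natriuretic peptides, had signals of 2004, 1274 and 863 on the F1 arrays, against 348, 308 and 287 on the BALB/c arrays and 4751, 3602 and 4585 on the DBA arrays. Sncg, a synuclein abundant in fat, had 2796, 2037 and 1534 on the F1 arrays, against 575, 533 and 595 on the BALB/c arrays and 5714, 4348 and 6714 on the DBA arrays. Both also fell into 3 groups without overlap, at positions of -0.0746 and -0.127 on the log2 scale and 0.467 and 0.381 on the linear one.

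Further genes between the parents had BALB/c as the higher parent, except Mrap2. Hal, which breaks down histidine, had signals of 1618, 1273 and 1583 on the F1 arrays, against 3203, 3791 and 3620.0 on the BALB/c arrays and 319.5, 273 and 216 on the DBA arrays. Its positions were 0.315 on the log2 scale and -0.252 on the linear one. Mrap2, an accessory protein of melanocortin receptors, had signals of 337, 334 and 420.5 on the F1 arrays, against 17.9, 16.9 and 25.3 on the BALB/c arrays and 667, 587 and 779 on the DBA arrays. Its linear position of -0.0451 was midway although its log2 position was -0.57, nearer DBA. Tgm3, a transglutaminase, had signals of 241, 267 and 434 on the F1 arrays, against 1105, 1552 and 1126 on the BALB/c arrays and 42.2, 76.7 and 36.9 on the DBA arrays. Among chemokines, Cxcl13, which organises B cell follicles, had signals of 2239, 2207 and 2244 on the F1 arrays, against 6077, 7767 and 6435 on the BALB/c arrays and 1416, 1803 and 921 on the DBA arrays. The F1 arrays were close together, above DBA and below BALB/c. It counted on the DBA side without F1 replicate 3, DBA replicate 1 or DBA replicate 3. Pck1, Npr3, Sncg, Hal, Mrap2 and Tgm3 kept their class in all 9 fits that left out 1 array, Cxcl13 in 6.

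Genes below both parents included a lectin of dendritic cells, a receptor of eosinophils and a product of alternatively activated macrophages. The class held 64 genes, and 7 without F1 replicate 3, 9 without BALB/c replicate 2 and 16 without BALB/c replicate 1. It held 25 to 37 without BALB/c replicate 3 or any 1 of the DBA arrays, and 101 and 105 without F1 replicates 1 and 2. Of the 64 themselves 6, 9 and 13 were kept without F1 replicate 3, BALB/c replicate 2 and BALB/c replicate 1. Without F1 replicates 1 and 2 the numbers kept were 43 and 35. Cd209a, the lectin DC-SIGN of mice, had signals of 239, 117 and 148 on the F1 arrays, against 718, 740.4 and 362 on the BALB/c arrays and 664, 545 and 554 on the DBA arrays. All F1 arrays were below all parental arrays, with an F1 minus BALB/c of -1.70 ± 0.28 (adjusted p = 0.0082) and an F1 minus DBA of -1.71 ± 0.28 (adjusted p = 0.0032). Siglecf, a sialic acid receptor of eosinophils and some macrophages, had signals of 39.2, 37.3 and 30.9 on the F1 arrays, against 183, 201 and 179.7 on the BALB/c arrays and 139, 118 and 65.9 on the DBA arrays. F1 minus mid-parent was -1.45 ± 0.19, with F1 below 103.7. Retnla, a secreted product of alternatively activated macrophages and fat, had signals of 11588, 5340.0 and 7922 on the F1 arrays, against 20187, 23683 and 18003 on the BALB/c arrays and 22636, 15100.0 and 17744 on the DBA arrays. F1 again lay below all parental arrays. Mt1, a metallothionein that binds zinc, had signals of 7460.0, 8735 and 7989 on the F1 arrays, against 13712, 13878 and 14879 on the BALB/c arrays and 10229.9, 11293 and 11912 on the DBA arrays. Mmp9, a gelatinase, had 326, 301 and 330.1 on the F1 arrays, against 713, 809 and 479 on the BALB/c arrays and 952, 709.5 and 533 on the DBA arrays. In both the F1 arrays lay below those of both parents. Cd209a, Siglecf and Mt1 kept the class in all 9 fits that left out 1 array, Retnla in 7 and Mmp9 in 6. Mt1, however, lost the class with quantile normalization.

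The list of alternatively activated and resident macrophage genes held more members lower than higher in F1. Of 16 tested genes 7 were lower than the mid-parent, against 3.21% of all genes, and 1 higher, Timd4, with a median of -0.50. Its mean log2 level was 10.76 to 11.34 in F1, 11.57 to 11.86 in BALB/c and 11.09 to 11.40 in DBA, so F1 lay below BALB/c and overlapped DBA. Against BALB/c 8 members were called lower and 1 higher (2.47% and 4.5% of all genes). In 3 members, Retnla, Cd209a and F13a1, all F1 arrays were below all parental arrays (5.13% of all genes). Besides Cd209a and Retnla, the mannose receptor gene Mrc1 (-0.65), the haemoglobin scavenger gene Cd163 (-0.72), Lyve1 (-0.48), F13a1 (-0.56) and the lectin gene Mgl2 (-0.82) were lower, these 5 being named after their values were seen. The count of 7 became 2 without F1 replicate 3. With quantile normalization 5 members were lower and 2 higher, at a median of -0.36. The part played in this list by the lower top of the F1 intensity range was not tested. Of 9 mast cell and eosinophil markers 3 were higher than the mid-parent (1 without F1 replicate 3 or BALB/c replicate 1 or 2) and 1 lower, against 5.65% and 3.21% of all genes. The list median was 0.13. The eotaxin gene Ccl24 had signals of 543, 170.4 and 280.1 on the F1 arrays, against 1039.5, 2026 and 965 on the BALB/c arrays and 806, 611 and 420.5 on the DBA arrays. Rnase2a, an eosinophil-associated ribonuclease, had 4934, 2047 and 3229.9 on the F1 arrays, against 13475, 14376 and 9894 on the BALB/c arrays and 10009, 6064 and 4907 on the DBA arrays. F1 minus mid-parent was -1.47 ± 0.34 for Ccl24 (adjusted p = 0.027) and -1.50 ± 0.28 for Rnase2a (adjusted p = 0.01), F1 overlapping DBA in Ccl24 and, by 1 array, in Rnase2a. Rnase2a was called below both parents, a class it kept in 2 of the 9 fits that left out 1 array, and Ccl24 was in no class.

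Lipid, matrix and proliferation genes were lower than the mid-parent in small numbers. Over all genes tested the share called lower was 3.21%. Of 22 lipid synthesis genes 4 were lower, Scd1 (-0.64), Scd2 (-0.72), Acly (-0.67) and Elovl5 (-0.48), and 10 without F1 replicate 1, 7 without DBA replicate 1, 2 without DBA replicate 2 and 1 without F1 replicate 3. Of 16 adipocyte genes 3 were lower, Fabp4 (-0.60), Car3 (-0.57) and Lpl (-0.52), and of 25 matrix genes 4, Fn1 (-0.62), Col3a1 (-0.46), Dcn (-0.42) and Pdgfra (-0.41). The adipocyte count of 3 became 7 without F1 replicate 1 and 0 without F1 replicate 3, BALB/c replicate 2 or DBA replicate 2 or 3. It was 1 without BALB/c replicate 3 (0 with quantile normalization). The matrix count of 4 became 1 without F1 replicate 3 and 2 without BALB/c replicate 2 or DBA replicate 2 or 3. Elovl5, Dcn and Pdgfra were named after their values were seen. Of these 11 genes 7 are among the 100 brightest, whose F1 signals were lower as a group, and the median of the matrix list, -0.16, turned to 0.05 with quantile normalization. Proliferation genes had 1 of 30 members called lower than the mid-parent, Rrm2, a subunit of ribonucleotide reductase, with signals of 997, 519 and 704 on the F1 arrays, against 1699, 1635 and 1498 on the BALB/c arrays and 1278, 1050.4 and 811 on the DBA arrays. F1 lay below BALB/c and overlapped DBA. The count of members lower than the mid-parent was 4 without F1 replicate 1 and 0 without F1 replicate 2 or 3, BALB/c replicate 1 or 2, or DBA replicate 2. Against BALB/c 7 of the 30 were lower (2.47% of all genes). The list means were 8.50 to 9.26 in F1, 9.52 to 9.66 in BALB/c and 8.90 to 9.39 in DBA.

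Neutrophil genes and acute cytokines gave no such separation. Over all genes tested 8.86% were called against the mid-parent, 5.65% higher and 3.21% lower. The neutrophil list had a mean of 8.51 to 9.88 in F1, 9.02 to 10.03 in BALB/c and 8.41 to 9.51 in DBA, with 1 of 16 members called against the mid-parent, Mmp9, or 3 without F1 replicate 2 and 0 without F1 replicate 3. S100a8, a subunit of calprotectin, had signals of 4131, 11593 and 5193 on the F1 arrays, against 12258, 16094 and 9849 on the BALB/c arrays and 10557, 9315 and 5635 on the DBA arrays. F1 overlapped both parents. Of the 20 neutrophil-attracting chemokines and acute cytokines 1 was called, Cxcl3 (-1.52, lower), with F1 below 103.7; it lost its call in 7 of the 9 fits that left out 1 array, and the list then had 0 to 2 members called. Cxcl1 had signals of 2322, 4729.8 and 1529.6 on the F1 arrays, against 5789, 1856 and 8223 on the BALB/c arrays and 3818, 2687 and 2515 on the DBA arrays. All groups overlapped. Endothelial markers had 0 of 16 called, at a median of 0.06 that turned to -0.06 without F1 replicate 3. Mesothelial markers had 3 of 14, all higher, 0 without F1 replicate 3 or DBA replicate 2 and 5 without DBA replicate 3 (Upk1b, Krt19 and Cldn15, the last chosen after its value was seen). Lysosomal genes had 1 of 20, Ctsh, higher by 0.53. Ctsh lost its call in 7 of the 9 fits that left out 1 array. Smooth muscle markers had 0 of 9 called, at a median of -0.71 (-0.03 without F1 replicate 1, and 4 called lower without F1 replicate 2), and neuronal and glial markers 0 of 6 at -0.37 (0.12 without F1 replicate 1, where their mean was 6.51 against 7.48 or more on the other 8 arrays, and -0.92 with 1 called lower without F1 replicate 2). A missed call does not show that F1 stood at the mid-parent.

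**Figure D4:**
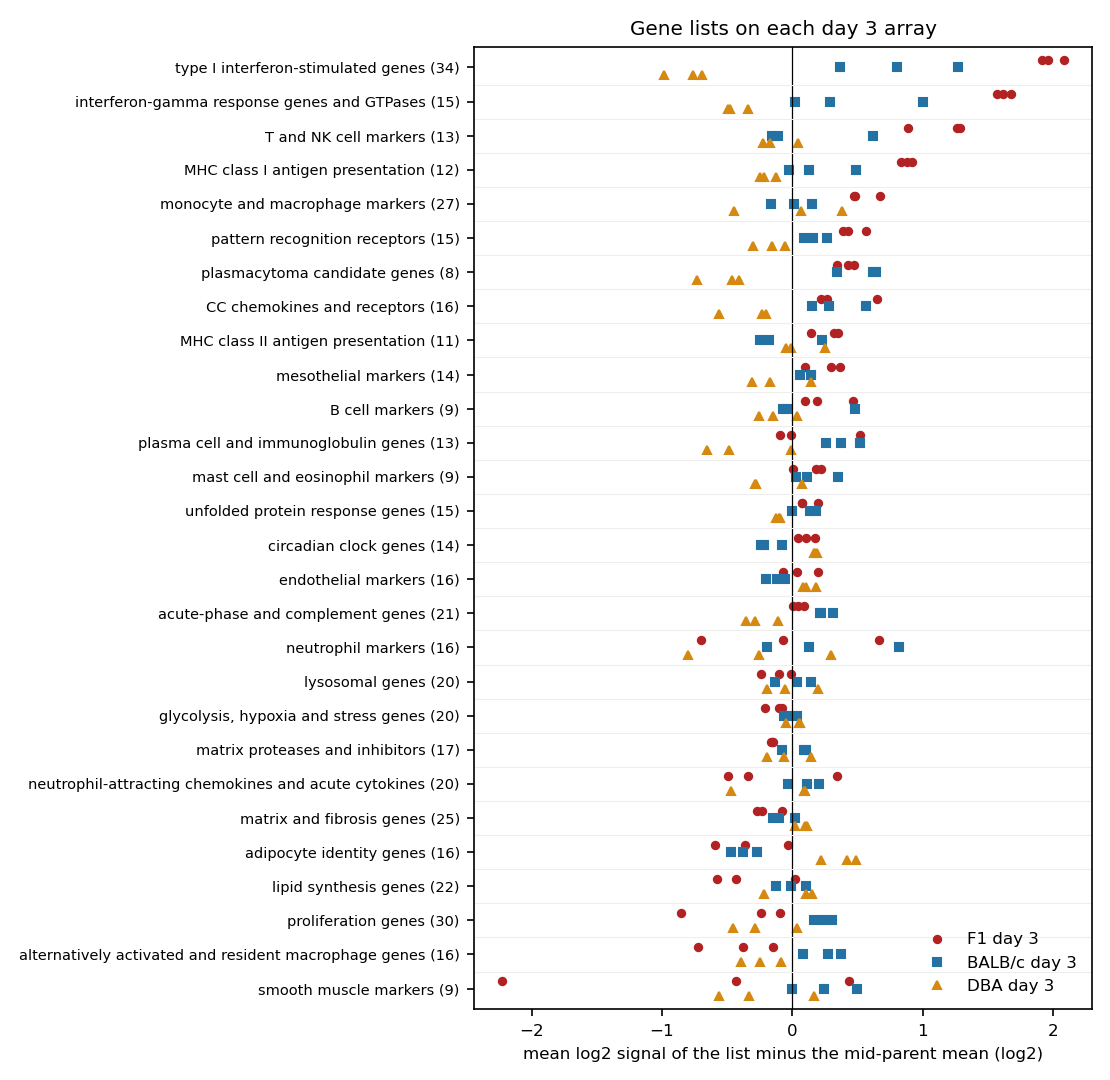
Mean log2 signal of each gene list on each of the 9 arrays, minus the mean of the BALB/c and DBA group means of that list, for lists with at least 8 tested genes (number in brackets), ordered by the F1 mean. In the interferon, T and NK cell and class I lists the 3 F1 circles lie right of all parental points, and in the list of alternatively activated and resident macrophage genes they lie left of all BALB/c squares.

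Whether F1 stood in the same place without treatment was asked with the 9 untreated arrays of the same run of title codes. F1 minus mid-parent differed between treated and untreated tissue in 469 genes (3.96% of those tested), by limma on all 18 arrays. All 3 untreated F1 arrays were low in Xist, at signals of 55 to 107.1, whereas all other arrays of the 18 were high, so that sex and treatment cannot be told apart in this comparison. For Cxcl10 the difference was 3.41, with untreated means of 80.43 in F1, 97.97 in BALB/c and 78.1 in DBA, and for Irf7 it was 3.00, with untreated means of 455, 345 and 385 in the same order. For 3 genes between the parents the difference was not called: it was -0.48 for Pck1, -0.34 for Sncg and 0.53 for Hal. For Mcpt2, on the DBA side, it was 0.04, not called, at untreated means of 219 in F1, 16.17 in BALB/c and 253 in DBA.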

How the data were processed

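Total RNA of whole mesentery was labelled and hybridised to Affymetrix Mouse Genome 430 2.0 arrays, per the labels' protocols. The deposited values are linear intensities per probe set, which per the submitters' processing notes come from GCOS and MAS5; their versions are not given in the sources used here, and the series text names ANOVA in Partek. The deposited intensities have a 2% trimmed mean of 500 on each of the 32 arrays, so differences are relative to that scaling.

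The platform annotation gave 1 symbol for 34958 of the 45101 probe sets, more than 1 for 932 and no symbol for 9211, and 64 array controls were left out. A gene is its probe set with 1 symbol and the highest mean over the 9 arrays; 5152 of the 11854 tested genes had more than 1. Log2(intensity + 24.9) was fitted in limma 3.58.1 (R 4.3.3, lmFit and eBayes with an intensity trend, two-sided), with contrasts of F1 minus mid-parent, BALB/c minus DBA, F1 minus BALB/c and F1 minus DBA, and Benjamini-Hochberg adjustment over all tested genes; the treated against untreated contrasts used 18 arrays. The number of arrays limits the precision. The fits were tested on simulated data.

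Genes named are the leading genes of each class by size, the highest and lowest against the mid-parent, up to 4 leading members of each of 35 gene lists, and the Ifi200 family, unless said otherwise. The members and lists were chosen with earlier results of these data known. Of 627 listed symbols 560 were matched and 486 tested. Alternatives changed the offset, dim filter, scaling, variance model, arrays fitted, probe set rule, mid-parent scale and a term for Xist, and left out each array in turn.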

Additional observations from a re-analysis of the deposited data

Results flagged for a closer look

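For the genes below, F1 minus mid-parent differed between treated and untreated mesentery by limma's test of that difference over 18 arrays (adjusted p under 0.05 over all genes tested), given here as treated minus untreated on the log2 scale. Over all genes tested 3.96% were called. Most genes below were named for a high or low F1 minus mid-parent on the treated arrays, which also enter this difference. Its sign was therefore largely set by that choice. Among interferon-induced genes the difference was positive for Mndal (1.54), Gbp2b (1.41), Ifi44l (3.25), Oas3 (2.22), Ifit1 (2.10), Ifit2 (2.93), Irf7 (3.00), Ms4a4c (3.13), Xaf1 (1.77), Ifi204 (1.57), Ifi207 (1.63), Ifi209 (2.67), Iigp1 (1.90), Irf8 (0.62) and Irgm1 (1.5). It was also positive for the chemokines Cxcl9 (3.51), Cxcl10 (3.41), Cxcl11 (3.43) and Ccl5 (1.82). Class I genes with a positive difference were Nlrc5 (1.78), Tap1 (1.51), Psmb9 (1.64), Psmb10 (1.38) and H2-Q5 (2.03). In markers of lymphocytes it was positive for Nkg7 (2.12), Klrk1 (2.42), Klrd1 (1.08), Gzma (1.53), Gzmb (2.13), Cd72 (1.69) and Mzb1 (1.25). Other genes with a positive difference were Aif1 (1.99), Fcgr1 (2.15), Fcgr4 (2.61), Tlr7 (0.92), Marco (1.34) and Ddit3 (0.93). It was negative for the macrophage and eosinophil genes Cd209a (-1.45), Siglecf (-1.52), Retnla (-1.17), Rnase2a (-1.28), Ccl24 (-1.78), Cd163 (-0.77), F13a1 (-0.81), Lyve1 (-0.84), Mgl2 (-1.10) and Mrc1 (-0.86). Further negative differences were those of Mt1 (-1.15), Cxcl3 (-1.85), Fn1 (-0.88), Rrm2 (-1.43) and Timp4 (-1.19). For Xist it was 7.08, as all 3 untreated F1 arrays were Xist-low and all other arrays Xist-high, so that sex and treatment cannot be told apart in any of these differences. For Mndal and Xaf1 F1 stood 1.91 and 1.95 above the mid-parent, a mean of logs, without treatment too, at 3.44 and 3.72 after it. For Xaf1 the untreated F1 mean signal nevertheless lay between those of BALB/c and DBA. Against the arithmetic mid-parent the treated values were 0.93 for Mndal, not called, and 2.35 for Xaf1.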

How the results depend on the processing

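Calls against the mid-parent numbered 1050, and 463 in an ordinary linear model, 583 with all 32 arrays in the fit and 85 with Xist as a term. The Xist signals of the 3 groups did not overlap, so the Xist term also takes up differences between the groups. For BALB/c minus DBA, 2063 calls became 3415 with array weights, 1203 with 32 arrays and 1140 with the Xist term; for F1 minus BALB/c, 827 became 224, 378 and 138 in the ordinary model, with 32 arrays and with the Xist term, and for F1 minus DBA, 2123 became 1322, 1157 and 128. Genes on the BALB/c side numbered 446 with 32 arrays and 87 with the Xist term, those on the DBA side 95, 445, 108 and 73 in the ordinary model, with array weights, with 32 arrays and with the Xist term, those between 34, 37 and 1 and those beyond both parents 81, 173 and 36 in the ordinary model, with 32 arrays and with the Xist term; the causes were not tested. Leaving out 1 array gave 296 to 1050 calls against the mid-parent, 1249 to 2312 between the parents, 259 to 935 against BALB/c, 1038 to 2141 against DBA, 426 to 939 genes on the BALB/c side, 80 to 325 on the DBA side, 40 to 91 between, 85 to 364 beyond both, 238 to 572 in the treated against untreated contrast and 967 to 1021 inflamed-state genes. With the Xist term 24 of 34 type I interferon genes were higher than the mid-parent, 4 of 15 interferon-gamma genes, 0 of 13 T and NK cell markers, and 0 of 16 alternatively activated macrophage genes were lower. Of 91 named genes called against the mid-parent, 22 were called under all alternatives. Signs turned for Col3a1 (0.04 with quantile normalization, 0.06 with the Xist term), Epcam (-0.17 with the probe set brightest over 32 arrays), and Car3 (0.07) and Lpl (0.07) with the Xist term. Against the arithmetic mid-parent they turned for Hal (-0.35), Marco (-0.06), Pck1 (-0.79) and Tgm3 (-1.03). With the Xist term Fabp4 came to 0 after rounding. Xist itself came to 0 there by construction, as the term is its own signal. No paired analysis was possible because the titles give no replicate numbers shared between the groups.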
